A study of Mus musculus with 39 samples.

Results

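Of 22180 genes measured in a mouse leukaemia series, 6 are described across every group: Gria3, Dscam, Tmem178, Clec2m, Stag3 and Mid1. They were chosen on these data because their array signal rose when the microRNA miR-126 was added to the leukaemia, or rose over the passages of that leukaemia. The measured values that chose them are therefore given as a description, with no test. The working name for the set was ectopic genes, meaning genes read out where blood cells do not normally express them. The arrays went against that name for 2 members, since Gria3 was high in normal marrow and the Mid1 probe set used gave a high signal in every group. A second Mid1 probe set was low in normal marrow. They went against it in part for Stag3, which was also higher at late passages of AE9a leukaemia without added miR-126.

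Cells were taken from the bone marrow of transplanted mice, and a flow sort kept the transplanted cells by the donor form of the blood cell surface protein CD45 (CD45.1). There were 13 groups with 3 mice each, 39 arrays in all, 1 array per mouse. The normal controls were donor marrow cells from first-passage recipients. AE9a leukaemia carried AE9a, a shortened variant of AML1-ETO, the fusion oncoprotein of a common form of acute myeloid leukaemia; AE9a+miR-126 leukaemia carried AE9a and added miR-126; and miR-126KO+AE9a leukaemia carried AE9a in cells lacking miR-126. Each of these 3 arms was sampled at passages 1, 2, 3 and 4 through recipient mice, so all 36 leukaemia arrays share AE9a. The labels give neither the vector and promoter behind AE9a and miR-126, nor strain, age or sex, nor which donor leukaemia seeded which recipient. P-values therefore measure the spread between these mice, which may share a donor.

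Gria3 encodes a subunit of the AMPA receptor, the channel that carries fast glutamate signals between neurons, and Dscam encodes an adhesion receptor that guides axons and spaces dendrites. Tmem178 encodes a membrane protein of the endoplasmic reticulum that restrains calcium entry in the osteoclast lineage. Clec2m belongs to the C-type lectin genes of the natural killer gene complex, whose relatives encode ligands of the Klrb1 receptors of natural killer cells. Stag3 encodes the cohesin subunit used in meiosis, and Mid1 encodes a microtubule-bound ubiquitin ligase that controls phosphatase PP2A. A microRNA acts by pairing its seed, the bases near its 5′ end, with messenger RNAs that are then held down, and in blood miR-126 is known as a regulator of stem cell quiescence.

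The label of the arm names the added microRNA without its mature form. A mature sequence of that microRNA, mmu-miR-126a-3p, is printed for reference. Which mature form was raised in the arm was not measured. RefSeq places mmu-miR-126a-3p at chr2:26591402-26591423 on the plus strand of GRCm38.p6. Capitals mark its seed.
mmu-miR-126a-3p: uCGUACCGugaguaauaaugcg

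Upstream sequence of 3 members is printed so that a reader can compare their starts. Tmem178 and Clec2m had the most similar pattern of any pair, and Dscam followed them closely. Each run is the 250 bases before the RefSeq start in GRCm38.p6, 5′ to 3′ on the strand of the gene. Capitals mark TCCCGC and its reverse complement GCGGGA, the core of the motif of the E2F factors. The windows are chr17:80944382-80944631 on the plus strand for Tmem178, chr6:129331782-129332031 on the minus strand for Clec2m, and chr16:97170736-97170985 on the minus strand for Dscam.
Tmem178: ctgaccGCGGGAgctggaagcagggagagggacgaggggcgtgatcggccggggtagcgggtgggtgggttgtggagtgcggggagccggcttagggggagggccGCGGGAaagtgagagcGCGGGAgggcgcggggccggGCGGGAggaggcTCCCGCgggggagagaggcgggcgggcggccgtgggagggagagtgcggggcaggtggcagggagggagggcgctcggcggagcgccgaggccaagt
Clec2m: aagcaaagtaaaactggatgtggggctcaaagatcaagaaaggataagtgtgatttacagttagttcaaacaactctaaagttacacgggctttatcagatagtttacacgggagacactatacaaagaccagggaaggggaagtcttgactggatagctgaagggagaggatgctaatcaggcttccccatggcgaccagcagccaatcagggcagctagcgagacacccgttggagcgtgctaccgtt
Dscam: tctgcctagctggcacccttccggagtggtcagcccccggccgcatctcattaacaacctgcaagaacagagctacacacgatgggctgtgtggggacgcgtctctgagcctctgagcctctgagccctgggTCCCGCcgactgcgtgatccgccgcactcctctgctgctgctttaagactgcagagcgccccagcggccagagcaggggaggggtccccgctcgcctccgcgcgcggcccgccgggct

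RefSeq's promoter table held 7 windows for 5 of the 6 members. CG dinucleotides numbered 29 in the window of Tmem178, 21 in that of Dscam, 26 in that of Stag3 and 7 in that of Clec2m, against a median of 6 over 32851 windows. The 3 windows of Mid1 held 0, 5 and 9. The E2F core stood in Tmem178, 5 times, and in Dscam, once, and in 16.9% of all windows. The core TGTGGT of the runt factors, the DNA-binding family to which AML1 belongs, was searched on both strands as well. It was in 0 of the 7 windows and in 14.0% of all windows. The E2F core was thus shared by 2 of the 5 members with a window, and a match describes the letters only.

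Values are the authors' deposited log2 expression, on which a difference of 1 is a 2-fold difference, and each member is read from 1 probe set. An error after a group mean is the SD over 3 arrays, and an error after a difference is its standard error in 1 linear model of all 39 arrays. The number of arrays limits the precision. The arrays differed in spread: the SD of all probe sets was under 1.8 on 8 arrays, namely 7 of the 9 AE9a+miR-126 arrays of passages 2 to 4 and replicate 3 of the knockout arm at passage 2. A probe set carrying the symbols Mir126a and Egfl7, the latter the host gene of the microRNA, lay between 5.90 and 11.56 on the 12 AE9a+miR-126 arrays. It lay between 2.76 and 3.88 on the other 27, so each array matched its label in this respect. It does not check the knockout, because AE9a and normal arrays were as low. A probe set of Egfl7 alone had a mean of 5.99 in AE9a+miR-126 and 5.89 in AE9a. Its mean was 5.99 in the knockout arm and 6.08 in the normal controls.

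Gria3, the AMPA receptor subunit, is the member with a high signal in normal marrow. The normal controls read 8.85, 8.70 and 8.49. In AE9a leukaemia the arrays of passage 1 read 5.73, 6.06 and 6.95, those of passage 2 read 5.74, 6.24 and 7.21, those of passage 3 read 5.54, 5.93 and 6.27, and those of passage 4 read 6.81, 6.55 and 7.03. No array of these 12 reached the lowest normal control. In sorted bulk cells, fewer cells of a type and less RNA per cell cannot be told apart.

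With added miR-126 Gria3 read 6.97, 8.66 and 7.96 at passage 1, then 9.23, 10.28 and 8.08 at passage 2. It read 10.64, 10.65 and 9.12 at passage 3 and 10.57, 10.78 and 11.51 at passage 4. From passage 3 on, all 6 arrays lay above all 27 arrays without added miR-126, the normal controls included. In miR-126KO+AE9a leukaemia the passage means stayed between 6.17 ± 0.50 (SD, n = 3) and 6.65 ± 0.60 (SD, n = 3). The order of the 13 means put passages 4, 3 and 2 of AE9a+miR-126 first, then the normal controls and AE9a+miR-126 passage 1, and then all groups without added miR-126; each group overlapped the next in that order.

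The difference of AE9a+miR-126 from AE9a in Gria3 started at 1.61 ± 0.49 in passage 1, and was 2.80 ± 0.49 in passage 2, 4.22 ± 0.49 in passage 3 and 4.16 ± 0.49 in passage 4. The last of these is 17.9-fold. Against the normal controls, passage 1 stood at -0.82 ± 0.49 and passage 4 at 2.27 ± 0.49. With added miR-126 the arrays thus overlapped normal marrow at passage 1 and exceeded it at passages 3 and 4, while every array of the other leukaemias was below it.

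Dscam, the axon guidance receptor, stayed low and nearly flat wherever miR-126 was not added. The normal controls read 5.19, 5.38 and 6.29, the 12 AE9a arrays lay between 5.01 and 5.57 with a median of 5.20, and the 12 knockout arrays between 4.87 and 5.43 with a median of 5.19. With added miR-126 the arrays read 5.58, 8.15 and 7.24 at passage 1, 7.18, 9.50 and 6.17 at passage 2, 10.33, 8.31 and 8.71 at passage 3, and 9.98, 9.39 and 10.39 at passage 4. Replicates at passages 1 and 2 were far apart, with SDs of 1.30 and 1.71 (n = 3). At passage 1 replicates 2 and 3 were already above every array without added miR-126, and replicate 1, at 5.58, was not.

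The Dscam difference from AE9a was 1.54 ± 0.54 at passage 1 and 4.70 ± 0.54, or 26.0-fold, at passage 4. In the order of its 13 means the 4 AE9a+miR-126 passages came first, and every neighbour in that order overlapped.

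Tmem178, the calcium entry regulator of the endoplasmic reticulum, showed the steepest rise of the 6. The normal controls read 5.22, 5.14 and 4.41, the AE9a arrays lay between 4.48 and 5.25 with a median of 4.93, and the knockout arrays between 4.26 and 5.35 with a median of 4.90. AE9a+miR-126 read 4.84, 5.40 and 5.20 at passage 1, inside or just above that range. It then read 6.50, 8.90 and 5.44 at passage 2, 9.85, 9.72 and 7.70 at passage 3, and 10.19, 10.13 and 11.56 at passage 4. From passage 2 on, all 9 arrays were above the highest of the 27 arrays without added miR-126, which was 5.35.

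The difference of Tmem178 from AE9a grew from 0.03 ± 0.53 in passage 1 to 2.16 ± 0.53, 4.29 ± 0.53 and 5.73 ± 0.53 in the next 3. The last value is 53.0-fold. The gap between passages 4 and 3 held for every array, and so did that between passages 2 and 1, while passages 3 and 2 overlapped.

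Clec2m, the lectin-like gene, moved almost as Tmem178 did. Normal controls read 5.57, 5.66 and 5.45, AE9a arrays lay between 5.48 and 6.01 with a median of 5.69, and knockout arrays between 5.39 and 6.19 with a median of 5.90. AE9a+miR-126 read 5.45, 5.97 and 5.98 at passage 1 and 6.16, 8.04 and 5.88 at passage 2. It reached 9.20, 9.48 and 8.26 at passage 3 and 9.01, 9.40 and 10.96 at passage 4. The arm was inside the range of the other arrays at passage 1, partly so at passage 2, and wholly above it at passages 3 and 4. Its difference from AE9a went from -0.09 ± 0.38 at passage 1 to 4.12 ± 0.38, or 17.4-fold, at passage 4.

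Stag3, the meiotic cohesin subunit, was higher at late passages of AE9a leukaemia too. The normal controls read 6.27, 6.69 and 5.28 and the 12 knockout arrays lay between 5.31 and 6.13 with a median of 5.90. AE9a read 5.88, 6.18 and 6.44 at passage 1, 6.17, 6.81 and 6.25 at passage 2, 9.11, 7.05 and 6.85 at passage 3, and 7.11, 8.73 and 8.57 at passage 4. Passages 3 and 4 lay above all knockout arrays and above all normal controls.

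With added miR-126, Stag3 read 6.01, 6.24 and 5.61 at passage 1, 6.56, 8.77 and 7.20 at passage 2, 9.74, 9.60 and 7.94 at passage 3, and 9.70, 9.79 and 10.24 at passage 4. Passage 1 was within the range of the normal controls. At passage 4 the arm stood 1.77 ± 0.51 above AE9a, 3.42-fold, and all 3 arrays exceeded each of the 27 arrays without added miR-126; at passage 3 the groups overlapped. Each of the 13 group means overlapped its neighbour in the order.

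Mid1, the microtubule-bound ubiquitin ligase, had a high signal in every group on the probe set used. The normal controls read 7.25, 9.56 and 8.60, the knockout arrays lay between 7.61 and 9.59 with a median of 9.06, and the AE9a arrays between 8.27 and 10.96 with a median of 9.69. AE9a+miR-126 read 9.08, 8.82 and 9.08 at passage 1, below AE9a by 0.74 ± 0.41. It then read 11.51, 11.70 and 11.08 at passage 2, 11.77, 11.91 and 11.27 at passage 3, and 11.72, 11.77 and 11.69 at passage 4. The 9 later arrays lay above all 27 others and near each other, and the mean was 2.81 ± 0.41, or 7.0-fold, above AE9a at passage 4. In the order of the means, these 3 passages were separated from AE9a passage 2, and that group from AE9a passage 1, while all later neighbours overlapped.

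**Figure D1:**
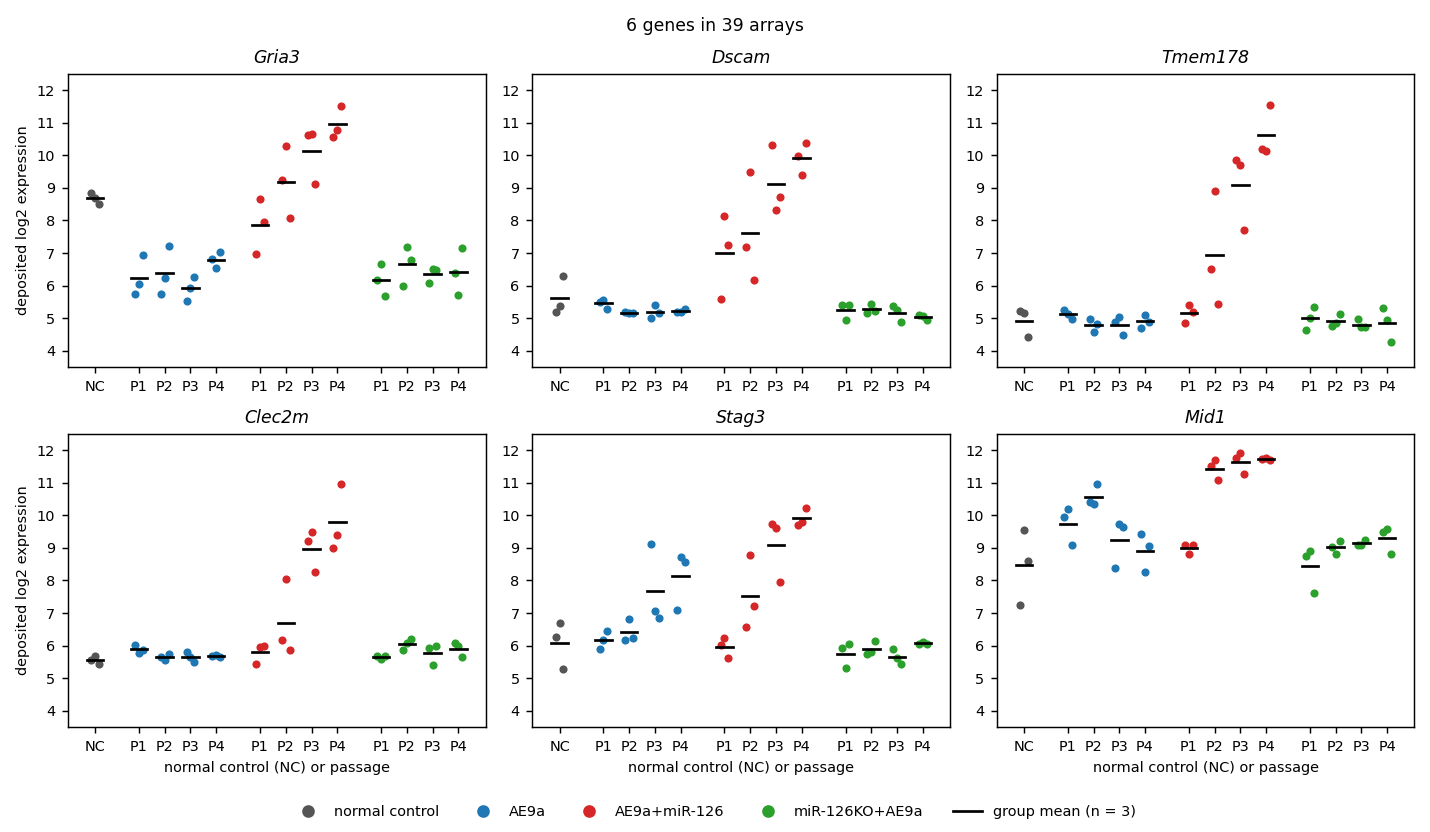
Deposited log2 expression (vertical axis) of each of the 6 genes in the normal controls (NC) and at passages 1 to 4 (P1 to P4) of the 3 leukaemia arms; a point is 1 array and a bar the mean of 3. At passage 4 the 3 AE9a+miR-126 arrays are above all 27 arrays without added miR-126 in every panel, and Gria3 is also high in the normal controls (8.49 to 8.85).

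Mid1 has 4 probe sets on this array, and their signals did not run in parallel. The other probe set annotated to Mid1 alone read 4.09, 4.01 and 4.24 in the normal controls. On it the AE9a arrays lay between 5.58 and 7.30, the knockout arrays between 5.25 and 7.33, and AE9a+miR-126 went from 5.64 ± 0.09 (SD, n = 3) at passage 1 to 8.37 ± 0.66 (SD, n = 3) at passage 4. On this second probe set all 36 leukaemia arrays were above the normal controls, which the probe set of highest mean does not show. The remaining 2 probe sets also carry the symbol G530011O06Rik, and their AE9a+miR-126 means went from 7.01 to 8.38 and from 5.77 to 8.63 between passages 1 and 4. All 4 were higher at passage 4 than at passage 1 of that arm, by group means.

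**Figure D2:**
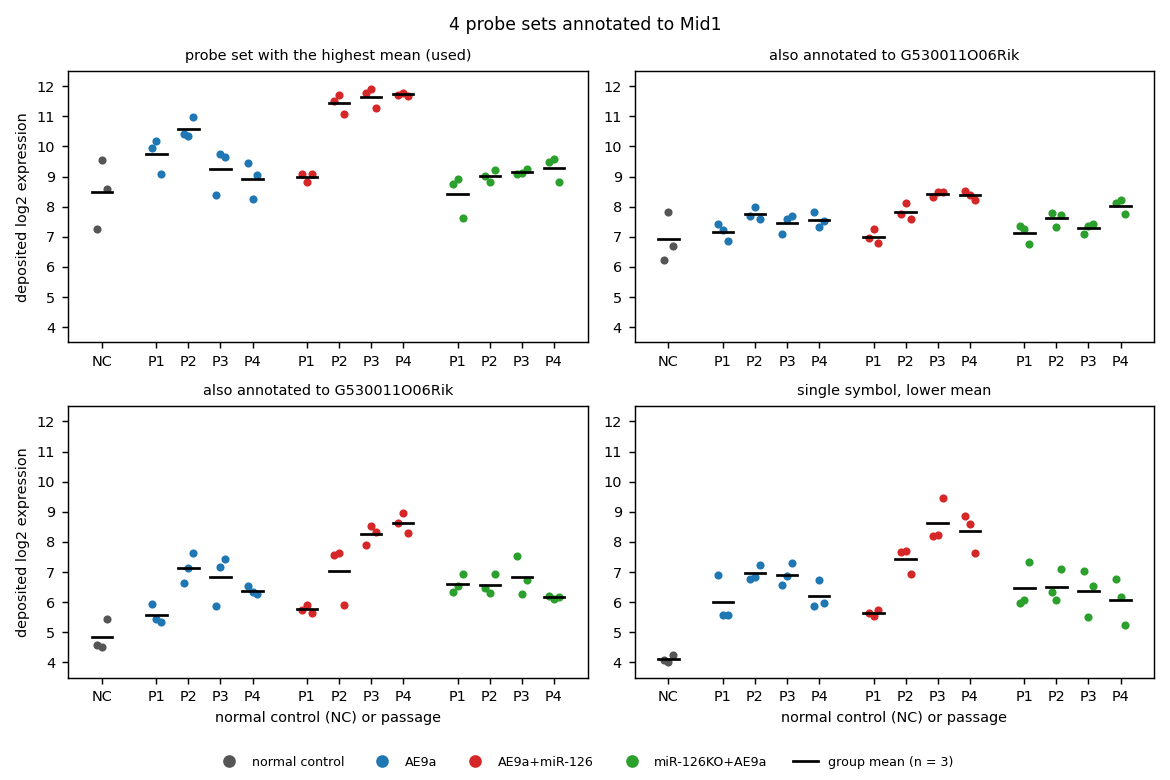
Deposited log2 expression (vertical axis) of the 4 probe sets annotated to Mid1, by group; points are arrays and bars are means of 3. Normal controls read 7.25 to 9.56 on the probe set used and 4.01 to 4.24 on the other single-symbol probe set, and all 4 have a higher AE9a+miR-126 mean at passage 4 than at passage 1.

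Set side by side, the 6 members separated in steps. At passage 1, 2 members (Gria3 and Dscam) had all 3 AE9a+miR-126 arrays above all 3 AE9a arrays, with nearest arrays at 6.97 against 6.95 and at 5.58 against 5.57. The number was 5 at passage 2, 5 at passage 3 and 6 at passage 4. Members whose 3 arrays exceeded all 27 arrays without added miR-126 numbered 0, 2, 5 and 6 at the 4 passages. Because the members were selected on this contrast, these counts carry no test. The share of all genes that separate in the same way was not counted. Averaged over passages, 30.7% of all genes were higher in AE9a+miR-126 than in AE9a and 24.3% lower at an adjusted p under 0.05, which is 6815 and 5396 genes. The split turned to 1724 higher and 2434 lower without passage 3, to 465 and 517 without the 8 arrays of low spread, and to 2554 and 5289 among genes above the median in at least 1 group. At passage 1 the shares were 0.0271% and 0.00451%. Called higher at passages 2, 3 and 4 were 705, 6056 and 2825 of 22180 genes, and lower 1259, 5511 and 2663. The split became 4125 and 4327 at passage 3 after quantile normalization, and 1716 and 2076 at passage 4 after cyclic loess.

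Within AE9a+miR-126, passage 4 minus passage 1 was 5.48 ± 0.53 for Tmem178, 3.99 ± 0.38 for Clec2m and 3.96 ± 0.51 for Stag3. It was 3.09 ± 0.49 for Gria3, 2.93 ± 0.54 for Dscam and 2.73 ± 0.41 for Mid1. The median of this change over all genes was 0.13, and 0.002 after cyclic loess, a shift small beside each of these 6. Gria3 and Dscam, whose lowest array at passage 1 was just above the highest AE9a array, had smaller changes than Tmem178, Clec2m and Stag3. Mid1, which did not stand above AE9a at passage 1, had the smallest change. Replicate 3 of passage 4 had the highest value of the arm for every member but Mid1, and without it the Clec2m change was 3.41. The SD of that array was 2.01, inside the range of the AE9a arrays (1.86 to 2.06). The next highest array was one of low spread for each of these 5 members, with an SD from 1.63 to 1.71. For Mid1 the highest array was itself one of low spread, with an SD of 1.71. The part of array spread in the rise was not tested. Without all 8 arrays of low spread the average difference from AE9a ranged from 0.85 (Mid1) to 2.67 (Gria3) over the 6 members; passages 2 and 4 of the arm then rested on 1 array each and passage 3 on none.

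**Figure D3:**
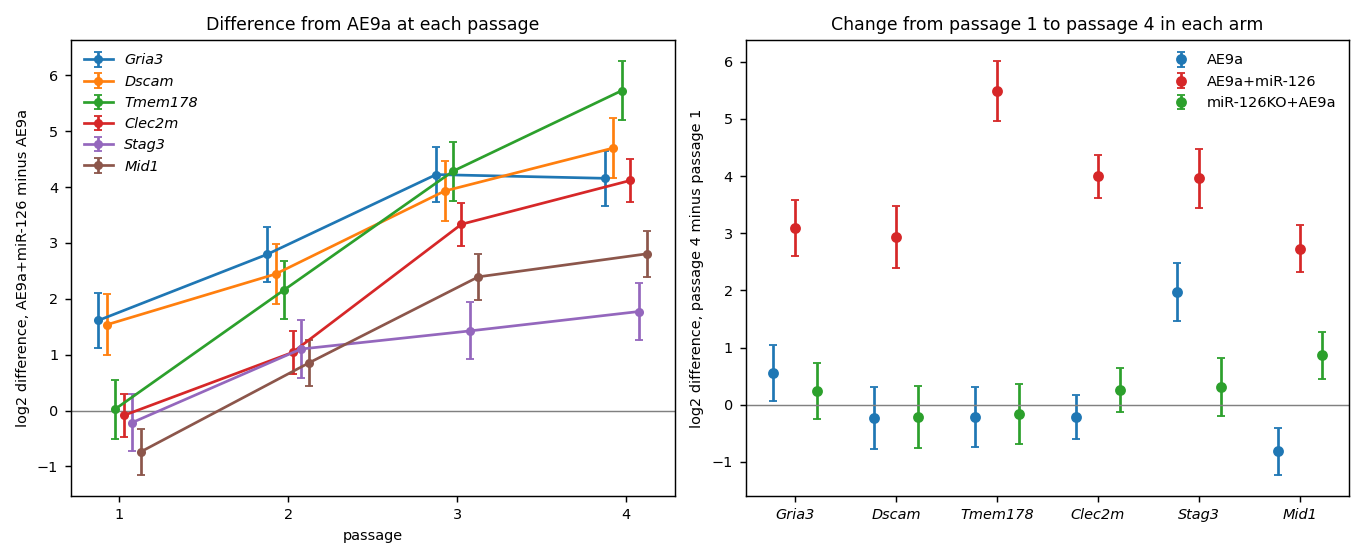
Left, log2 difference between AE9a+miR-126 and AE9a (vertical axis) at each passage; right, log2 difference between passages 4 and 1 in each arm. Points are differences of group means of 3 arrays and bars are standard errors of the model; Tmem178 goes from 0.03 to 5.73 on the left, and on the right Stag3 is the gene with the largest AE9a change (1.97).

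Differences among the miR-126KO+AE9a arm and the normal controls were not what chose the members, so they are tested. Whether either group was also a low side of that choice is not stated, and the tests may not be wholly independent of it. The first asks whether the members differ between knockout leukaemia, averaged over its passages, and normal marrow. Gria3 fell by 2.28 on the log2 scale, 4.87-fold (standard error 0.39, adjusted p = 0.000109, limma), and all 12 knockout arrays lay below all 3 normal controls. It was the 1 member of 6 that passed; 8.12% of all genes passed as lower and 5.64% as higher in the same comparison.

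The other differences from normal marrow were -0.44 ± 0.43 for Dscam, -0.04 ± 0.42 for Tmem178, 0.28 ± 0.30 for Clec2m, -0.24 ± 0.40 for Stag3 and 0.50 ± 0.32 for Mid1, with adjusted p from 0.330 to 0.968. Knockout arrays overlapped the normal controls for each of these 5. With the mean of its single-symbol probe sets, Mid1 passed as higher in the knockout arm, at 1.37 (adjusted p = 0.000152, limma). The AE9a arrays, which were the low side of the contrast that chose the members, stood -2.34 ± 0.39 from the normal controls in Gria3, beside -2.28 ± 0.39 for the knockout arm; both share the same normal controls, and the AE9a value carries no test.

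Over the passages of the knockout arm, 0 of the 6 members passed, and Mid1 alone had an unadjusted p under 0.05. Its passage 4 minus passage 1 was 0.86 ± 0.41 (adjusted p = 0.355, limma), and the others lay between -0.22 and 0.31. In this comparison 1.38% of all genes passed as higher and 2.66% as lower. The highest knockout array of passage 4 read 9.59 for Mid1 and 7.15 for Gria3, below all 3 AE9a+miR-126 arrays of that passage.

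Within AE9a the change over passages is described without a test, because the AE9a arrays were the low side of the contrast that chose the members. Stag3 stood 1.97 ± 0.51 higher at passage 4 than at passage 1, 3.92-fold, with all 3 arrays of passage 4 above all 3 of passage 1. Leaving out 1 array at a time gave 1.67 to 2.48. The other members ranged from -0.82 ± 0.41 (Mid1) to 0.55 ± 0.49 (Gria3). Over all genes 2.02% were called higher and 0.915% lower, and the split of 449 higher and 203 lower became 410 and 343 after quantile normalization, 741 and 562 after cyclic loess, and 693 and 799, the other way round, with array spread in the fit.

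The change over passages in AE9a minus that in the knockout arm, a contrast added after the values had been seen, was 1.66 ± 0.72 for Stag3 and -1.68 ± 0.58 for Mid1. It shares the AE9a arrays and is given without a test as well, so no difference between the arms is shown for Stag3, which changed by 0.31 ± 0.51 in the knockout arm. Over all genes 0.379% were called higher and 0.0496% lower.

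The members rose in the same arrays to different degrees. Over the 13 group means Tmem178 and Clec2m had a Pearson r of 0.99, and the 15 pairs ranged from 0.70 (Gria3 and Mid1) to 0.99 with a median of 0.83. Deviations of the 12 AE9a+miR-126 arrays from the mean of their passage, which the choice of members did not use, correlated between 0.31 (Dscam and Mid1) and 0.93 (Tmem178 and Clec2m), with a median of 0.75. At passage 2, replicate 2 was the highest array for each of the 6. All these points share arrays, so the coefficients are a description only.

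The probe set of Mir126a and Egfl7, which reads precursor or host transcripts and not the mature microRNA, varied between those 12 arrays. It read 8.48, 8.27 and 8.18 at passage 1, 7.98, 9.01 and 11.56 at passage 2, 6.92, 7.46 and 5.90 at passage 3, and 6.60, 6.63 and 8.59 at passage 4. The group mean was thus lower at passages 3 and 4 than at passage 1, while the members were higher. All 3 arrays of passage 3 and replicates 1 and 2 of passage 4 were among the arrays of low spread. Replicate 3 of passage 4, which was not, read 8.59, above all 3 arrays of passage 1. The part of array spread in the lower means was not tested. The top array of this probe set, replicate 3 of passage 2, was the lowest of that passage for every member but Stag3, for which replicate 1 was lower.

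Correlations of the within-passage deviations with this probe set had a Pearson r from -0.24 (Dscam) to 0.32 (Stag3) and a Spearman rho from -0.20 (Dscam) to 0.48 (Stag3), with 12 arrays. In an exact permutation test within passages, two-sided, adjusted p was 0.998 for each Pearson r and from 0.852 to 0.914 for rho, over 12 relations. Without the 2 arrays farthest from the median, replicate 3 of passage 2 and replicate 3 of passage 3, r ranged from 0.14 (Mid1) to 0.88 (Clec2m), and the lowest exact permutation p was 0.0903. The other 6 relations, with the SD of each array, gave r from 0.01 (Dscam) to 0.53 (Clec2m), and from -0.41 (Mid1) to 0.46 (Clec2m) without replicate 3 of passage 3 and replicate 1 of passage 1. Their adjusted p was 0.998 for each r in the exact permutation test.

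**Figure D4:**
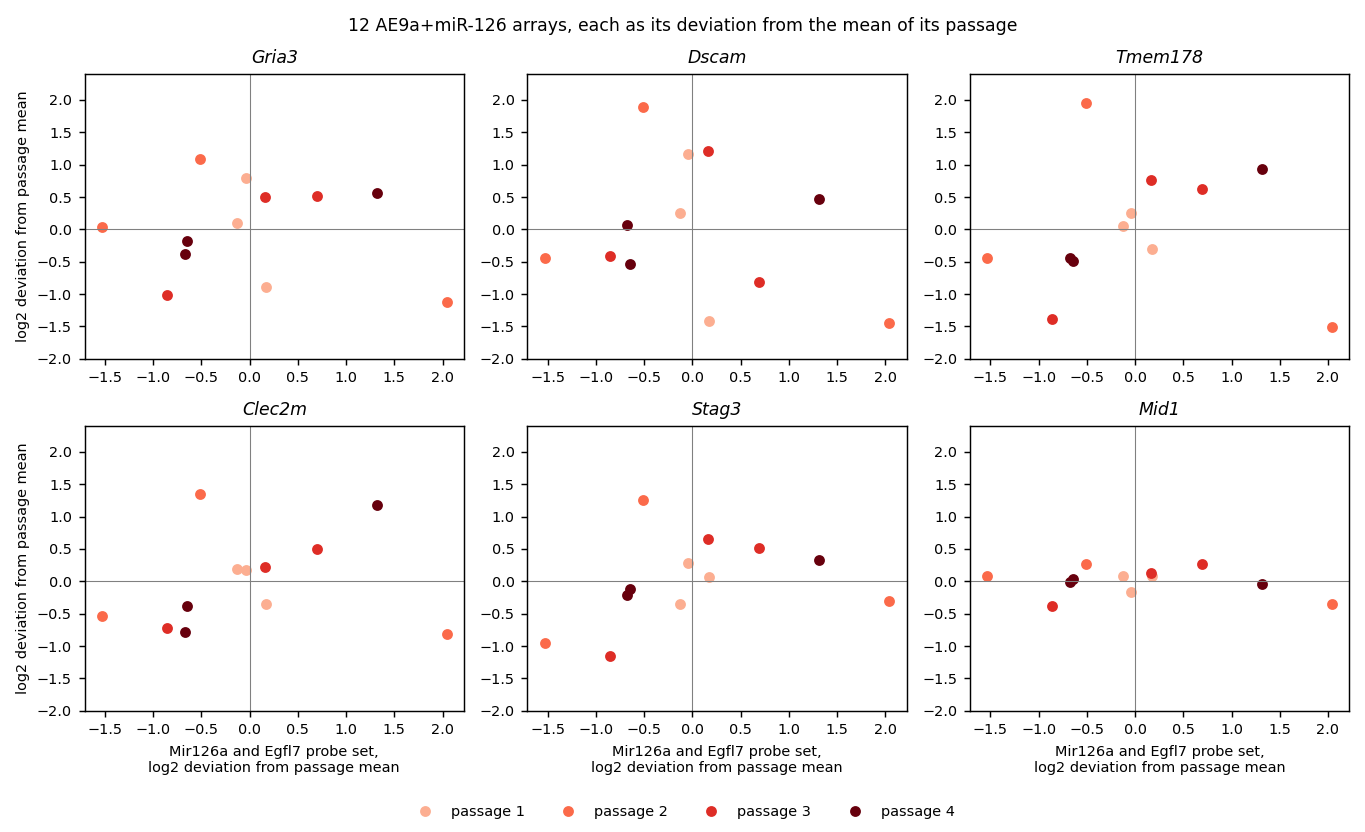
For the 12 AE9a+miR-126 arrays, each point is an array's log2 deviation from the mean of its passage, with the Mir126a and Egfl7 probe set on the horizontal axis and the named gene on the vertical axis; darker points are later passages. The array farthest to the right is replicate 3 of passage 2, and r runs from -0.24 (Dscam) to 0.32 (Stag3).

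Genes with the most similar profile were sought over the same 13 group means. For Tmem178 these were Adam2, Myo18b, Morc1, Col19a1 and Six4, at r from 0.98 to 0.99, and for Clec2m they were Adam2, Pcdhb16, Col19a1, Drc7 and Nxf7, in the same range of r. Adam2, as an example, had group means of 3.69 at passage 1 and 6.51 at passage 4 of AE9a+miR-126, against 3.60 at passage 4 of AE9a. Dmrtb1, Cd163, Slc22a17, Klhl41 and Slc4a8 followed Dscam most closely, at r from 0.97 to 0.98; Cd163 went from 7.29 to 9.13 in the arm and was at 4.78 in AE9a at passage 4. Likeness was lower for the other 3: Nwd1, Acacb, Cmc2, Acy1 and Snhg5 for Gria3 at 0.95 to 0.96, Pcdhga10, Bcl2l14, Abhd6, Tmem82 and Pyroxd2 for Stag3 at 0.95, and Spata31d1a, Cyp26b1, Eif4a1, Hoxd13 and Tmem239 for Mid1 at 0.94 to 0.97. A high r says nothing of size: Spata31d1a, the gene most like Mid1, had means of 5.65 and 5.93 at passages 1 and 4 of the arm.

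Genes beside the members on the chromosome were read as well, the nearest 2 measured genes on each side in RefSeq order. Of these 24 genes, Itgb2l, a neighbour of Dscam, was lower by 3.07 in AE9a+miR-126 than in AE9a at passage 4. The others differed by -0.97 (Xiap, beside Gria3) to 1.08 (C230072F16Rik, beside Tmem178), each smaller than the difference of the member it flanks.

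Relatives of the members were taken from 8 lists written from general knowledge, with 135 of 146 genes measured. In AE9a+miR-126 minus AE9a, averaged over passages, 48 were higher and 26 lower at an adjusted p under 0.05, near the 30.7% higher and 24.3% lower of all genes, so the counts show nothing particular to the relatives. The split was 22 and 18 after quantile normalization, 19 and 18 after cyclic loess, and turned to 9 and 13 without passage 3. At passage 1, 0 of the 135 passed, and 3 had an unadjusted p under 0.05 (limma). When array spread entered the fit as a covariate 13 relatives passed, and without the 8 arrays of low spread there were 5.

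Of those 5, Ncam1, a neural cell adhesion molecule, was 2.27 ± 0.22 higher (adjusted p = 4.62e-09, limma) and 2.52 higher without the arrays of low spread. Klrb1f and Klrb1c, receptors of the family that binds Clec2 ligands, were 1.92 ± 0.21 (adjusted p = 5.17e-08, limma) and 1.03 ± 0.15 (adjusted p = 4.71e-06, limma) higher, and 2.12 and 1.07 without those arrays. Nfatc2, a calcium-regulated transcription factor, fell by 0.87 (standard error 0.11, adjusted p = 3.58e-07, limma), and stood at -0.52 without those arrays (adjusted p = 0.0391, limma). Hormad2, of meiotic chromosome axes, fell by 0.50 (standard error 0.14, adjusted p = 0.00321, limma), and stood at -0.77 without them (adjusted p = 0.0190, limma). In the knockout arm Ncam1 fell against normal marrow by 3.21 and Klrb1f by 1.81 (adjusted p = 1.21e-07 and 0.000342, limma), while Klrb1c did not pass. In that comparison 13 of the 135 relatives were called lower and 2 higher, beside 8.12% and 5.64% of all genes.

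Each list is read against the same shares of all genes, 30.7% called higher and 24.3% lower. By role, 11 of 15 ionotropic glutamate receptors were higher, with a median over the list of 0.28 against 0.08 over all genes, and 0 passed without the arrays of low spread. Gria1, Gria2 and Gria4, the other AMPA subunits, differed by 0.31 ± 0.08, 0.44 ± 0.12 and 0.12 ± 0.09, where Gria3 differed by 3.20 ± 0.24. The sign of Gria4 turned after cyclic loess (-0.11), after quantile normalization (-0.09) and with array spread in the fit (-0.17), and that of Gria2 without the arrays of low spread (-0.02). Among partners of the AMPA receptor 6 of 17 were higher, Cacng2 and Grip1 with them (0.33 and 0.30), and the scaffold gene Dlg1 was lower by 0.68. Of 22 adhesion molecules 13 were higher; Robo1 and Ncam2 differed by 0.55 and 0.42, and Dscaml1, the paralogue of Dscam, by 0.19 ± 0.08 (adjusted p = 0.0504, limma) and by -0.01 after cyclic loess. Of the 13, Ncam1 alone passed without the arrays of low spread.

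In the list of store-operated calcium entry 13 of 15 genes were lower, with a median of -0.66. The channel genes Orai1 and Orai3 fell by 1.02 and 0.89. Without the arrays of low spread Nfatc2 alone passed, and 5 of the 14 relatives called there had the other sign. Tmem178b, the paralogue of Tmem178, was 0.65 ± 0.11 higher (adjusted p = 3.69e-05, limma), and 0.20 with array spread in the fit (adjusted p = 0.188, limma). Its arrays read 4.85 to 6.38 in AE9a+miR-126 and 4.76 to 5.27 in AE9a.

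Of 10 measured Clec2 and Klrb1 genes 4 were higher and Klrb1b was lower by 1.20. Clec2d, a Clec2 ligand, differed by -0.36 ± 0.16 (adjusted p = 0.0521, limma) and by 0.11, the other sign, with array spread in the fit. Of 15 cohesin genes 6 were lower and 0 higher, Esco1 by 0.98 and Nipbl by 0.73, but 4 were higher and 2 lower after either cyclic loess or quantile normalization. Stag1 and Stag2, the subunits that take the place of Stag3 in dividing body cells, fell by 0.53 and 0.55 in that fit (adjusted p = 0.00227 and 0.0134, limma) but stood at 0.11 and 0.25, the other sign, with array spread in the fit. Meiosis genes were higher in 8 and lower in 2 of 25 cases, Mei4 and Rnf212 by 0.44 and 0.42, and of these 10 only Hormad2 passed without the arrays of low spread. Of 16 relatives and partners of Mid1, 5 were higher and 3 lower; Trim46 was 0.30 higher and the PP2A subunit Ppp2cb fell by 0.81. Mid2, the paralogue, was 0.36 ± 0.11 higher, and -0.06 with array spread in the fit; the PP2A subunit Ppp2r1a fell by 0.32, and stood at 0.16 after cyclic loess. None of the 8 passed without the arrays of low spread.

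**Figure D5:**
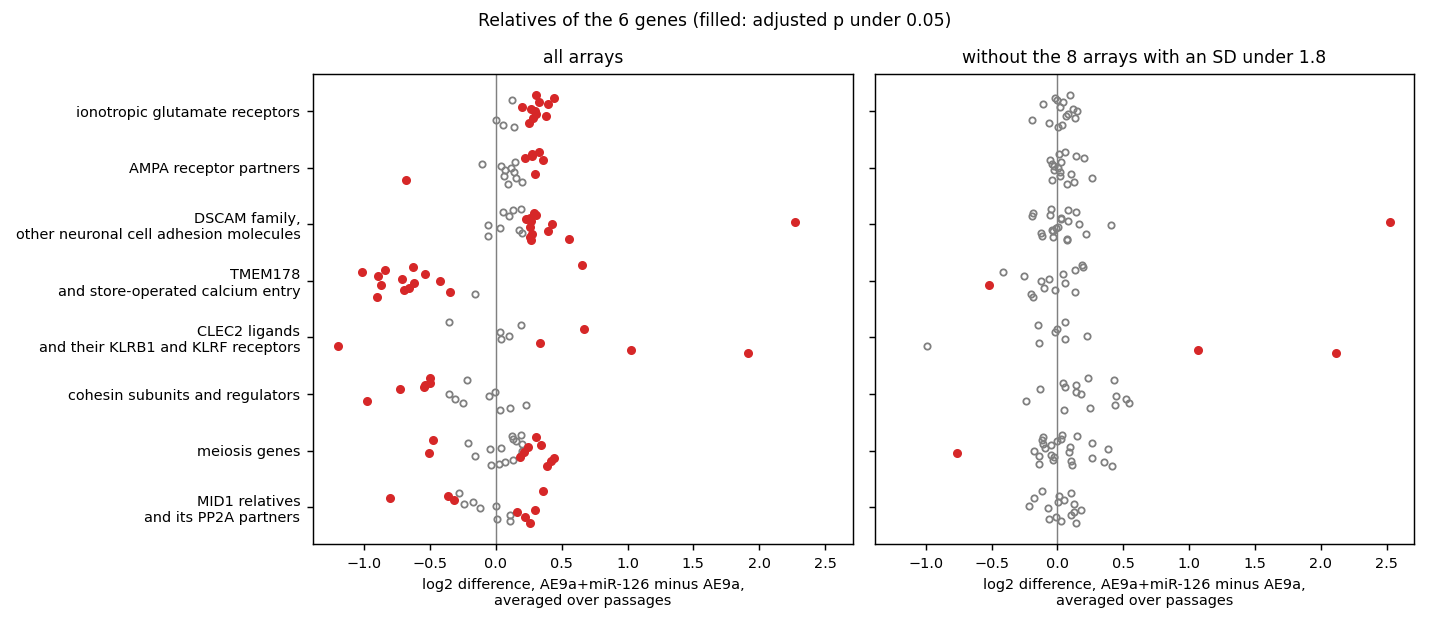
Log2 difference (horizontal axis) between AE9a+miR-126 and AE9a, averaged over passages, for 135 relatives of the 6 genes grouped by list (vertical axis); filled points passed at an adjusted p under 0.05. On the left, with all arrays, 74 passed; on the right, without the 8 arrays of low spread, where the average is over passages 1, 2 and 4, 5 passed.

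Since Gria3 and Dscam are known from neurons, Stag3 from germ cells and Tmem178 from the osteoclast lineage, markers of other cell types were read beside them. On the 12 AE9a+miR-126 arrays the summed level of 15 neuronal markers was 8.78 to 9.69 on the log2 scale, and 8.80 to 9.11 on AE9a arrays. That of 13 germ cell markers was 8.27 to 8.85 and 8.18 to 8.56, and within the AE9a+miR-126 arm it was 8.27 to 8.37 at passage 1 and 8.55 to 8.76 at passage 4. The neuronal markers overlapped there, at 8.86 to 9.28 and 8.78 to 9.38. Averaged over passages 7 of 15 and 7 of 13 were called higher, against 30.7% of all genes. The largest differences among all markers of each list, called or not, were 0.58 (Gap43) and 0.56 (Tdrd9). From passage 1 to passage 4 of the arm the largest, called or not, were 0.89 (Dcx) and 1.37 (Tdrd9). In that comparison 3 of each were called higher, and 1 neuronal marker lower. Of all 22180 genes 2469 were called higher and 2926 lower in that comparison. The summed level of 7 osteoclast markers was 9.28 to 9.65 at passage 1 of AE9a+miR-126 and 8.23 to 8.80 at passage 4. Averaged over passages, 2 of the 7 were called higher than in AE9a and 2 lower, beside 30.7% and 24.3% of all genes. For 4 erythroid markers the sum was 6.84 to 7.89 in AE9a+miR-126 and 6.99 to 11.08 in AE9a. For 8 endothelial and stromal markers it was 8.33 to 9.07 and 8.37 to 8.70. The marker counts were not repeated without the arrays of low spread, so the part of array spread in them was not tested. The part of these markers in the members' rise was not tested. The values have no zero and the files used here hold no detection call.

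Blood cell identity was read from 7 markers, all measured, of which Ptprc, which encodes CD45, stood at 10.04, 10.11 and 10.21 at passage 4 of AE9a+miR-126 against 11.02, 11.01 and 10.76 in AE9a. Their summed level was 12.82 to 13.12 at passage 4 of AE9a+miR-126, and 13.51 to 13.87 over all 12 AE9a arrays. Averaged over passages, 6 of the 7 were called lower than in AE9a, against 24.3% of all genes. Among genes above the median in at least 1 group, 5289 of 13454 were called lower. Counts of these markers were not repeated without the arrays of low spread, so the part of array spread in them was not tested. Summed levels of 9 natural killer and T cell markers, 8.70 to 9.62 on AE9a+miR-126 arrays, were below those of the normal controls, 10.45 to 11.27. Of the 9, Klrb1c, which is also in the Klrb1 list, was the 1 called higher than in AE9a, and 5 were called lower. B cell markers in the normal controls summed to 10.92 to 11.72, and to 8.07 to 9.97 in the knockout arm, where 5 of 5 fell against normal marrow, as did 6 of the 9 natural killer and T cell markers. The part of either in the lower Gria3 of the knockout arm was not tested.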

How the data were processed

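The authors' deposited values are log2 expression values of 27037 probe sets on 39 one-colour Affymetrix mouse gene arrays. Per the submitters' processing notes they were made with RMA and Partek 6.0; the sources used here name no genome build, filter or RMA setting. RMA usually corrects background, normalizes between arrays and summarises the probes of a set. After it the SD over probe sets still ran from 1.43 to 2.08 between arrays. Symbols came from the platform annotation: 23521 probe sets had 1, 1814 several and 1702 none. A gene was read from its brightest probe set by mean, which left 22180 genes; 1082 had more than 1 probe set. Groups and replicate numbers came from the array titles.

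All 39 arrays entered 1 fit with 13 group means and 26 residual degrees of freedom in limma 3.58.1 (R 4.3.3). P-values were adjusted over all genes of a comparison by Benjamini-Hochberg, with 0.05 as the threshold. For the members, differences of AE9a+miR-126 from any group or over its passages carry no p, nor do those of AE9a from normal or knockout arrays. The members were chosen for their rise with added miR-126, with AE9a as the low side. The change within AE9a had been planned as a test and is given without one for that reason. Correlations used Python 3.11.15 and scipy 1.17.1. Marker levels were summed on the linear scale and given as log2.

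The members and lists were chosen with earlier results of these data known. The text names the members, per member the 5 genes of highest correlation over group means (passing over predicted genes, clones, small RNAs, receptors of smell, histones and pseudogenes), fixed paralogues, and per list of relatives up to 3 genes with the smallest p. Hormad2 and Nfatc2 were named by that rule too. Genes beside the members, the difference of changes between AE9a and knockout, and for relatives the settings quantile normalization, no passage 3 and no replicate 3 of passage 4 were chosen after values had been seen. Gap43, Dcx, Tdrd9 and the neighbours named were singled out by their values. Alternatives were other normalizations, array spread as a covariate, array weights, the replicate number as a block, another variance prior, a filter on dim genes, the mean of all probe sets, the compared groups alone, and leaving out arrays. The fit was tried on simulated data for the knockout and AE9a comparisons alone. The simulated noise was independent, with no differences in array spread and no shared donors, so that run says nothing on either. Sequences are RefSeq's.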

Additional observations from a re-analysis of the deposited data

How the results depend on the processing

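The directions of the average difference of each of the 6 members from AE9a, and of its change over passages with added miR-126, were the same under every setting run. The members were chosen on these differences, so this is a description and no support. Of the 34 settings of the average difference, 24 left out a single array and could move it little. The limit used next, 1 residual SD, is the spread of single arrays. Mid1 at 0.85, from 1.33, and Dscam at 2.57, from 3.15, fell within it. Of 204 alternative values of the average difference, 204 stayed within 1 residual SD of the reported value; of 90 for the change over passages 85 did, and the others were 6.41 for Tmem178 and 5.16 for Clec2m without the arrays of low spread, 3.13 and 3.41 for Clec2m with array weights and without replicate 3 of passage 4, and 3.29 for Mid1 with cyclic loess. The members called in knockout minus normal numbered 1, and 2 with array weights (Stag3 added) and with the mean of all probe sets (Mid1 added); leaving out single arrays gave 1 throughout. Gria3 kept an adjusted p between 3.74e-07 and 0.00279 over its 25 alternatives. For passage 4 minus passage 1 in the knockout arm the number was 0 under all 16 alternatives. For AE9a, where the count is no test of the members, it was 1, 2 with array weights (Mid1 added), and 0 to 1 when single arrays were left out. Relatives called numbered 74, and 37 with cyclic loess, 13 with array spread in the fit and 5 without the 8 arrays; the cause was not tested. Over all genes, knockout minus normal gave 3053 calls, 4778 with array spread in the fit, 8605 with array weights, 5273 without arrays of low spread, and 1962 and 2005 without normal replicates 1 and 2. The average difference with added miR-126 gave 12211, 7872 after cyclic loess, 2813 with array spread in the fit, 982 without arrays of low spread and 4158 without passage 3. For passage 4 minus passage 1 the calls were 897 in the knockout arm and 652 in AE9a. They were 1530 and 1303 after cyclic loess, 1735 and 1492 with array spread in the fit, 3634 and 3691 with array weights, 1886 and 1875 without arrays of low spread, and 1771 and 1485 with the compared groups alone; the lowest count without 1 array was 531 (knockout passage 1, replicate 2) and 297 (AE9a passage 1, replicate 1). The difference of these changes gave 95, 171 with array spread in the fit, 1731 with array weights, 235 without arrays of low spread, 424 with the compared groups alone, and 42 to 147 when 1 array was left out. With the replicate block, 1, 0 and 1 members were called in the 3 comparisons and 72 relatives, so the replicate block changed no call of a member; deviations of same-numbered arrays, over 11 pairs of compared groups, correlated between -0.30 and 0.30, and in none of these were all 3 correlations over 0.1, so the numbers were not taken to pair the mice.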
